A study of Homo sapiens with 16 samples.

Results

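The H3K27ac peaks of A2780 and CAOV4, a pair of epithelial ovarian cancer (EOC) cell lines sensitive to cisplatin (cPt), were compared on the autosomes. Peaks of the 2 lines that overlapped by at least 1 bp were merged into 1 region, and each region was classed as shared, A2780-only or CAOV4-only by the lists that held a peak there. The 27932 A2780 peaks and 22826 CAOV4 peaks gave 39160 regions, out of 179695 listed peaks in the 8 lists of the series. A2780 was derived from an endometrioid adenocarcinoma and CAOV4 represents high-grade serous EOC, so the comparison sets 1 line of each subtype against the other and the line cannot be told apart from the subtype. Both lines were left untreated and were profiled with an antibody against H3K27ac on mononucleosomes that carried a D. melanogaster spike-in of 5%. The other lists come from A2780cis and CAOV4cis, the resistant derivatives of the 2 lines that are kept in cPt, from A2780 cells with 1 of 2 shRNAs against MBD3 (shMBD3.26 and shMBD3.232), and from H3K9ac in A2780 and A2780cis. Knockdown lasted 1 week in both shRNA libraries. Here the 4 A2780-derived H3K27ac libraries are called the A2780 lineage and the 2 CAOV4-derived ones the CAOV4 lineage. There is 1 library per condition, so differences between the lines have no replicate check, and no test was run.

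Acetylation of histone H3 at lysine 27 is placed by the acetyltransferases p300 and CBP and removed by histone deacetylases, and it marks active promoters and enhancers. Enhancers are the regulatory elements that differ most between cell types, whereas the promoters of widely used genes carry the mark in most cells. Long domains of H3K27ac, in which many acetylated nucleosomes lie close together, are known to gather at genes that define a cell's identity. H3K9ac marks much the same active elements and is often read beside H3K27ac.

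The lists give the start and end of each peak and no signal, since the score is 0 in every row. The comparison therefore shows where a peak was listed and how wide it was, not how many reads support it, since that depth is unknown. All autosomal boundaries are multiples of 200 bp, and neighboring peaks within a list are separated by 1000 bp or more. MACS2, which the study names as its peak caller, sets boundaries to the base, and the step that gave this layout is not given in the sources used here, so that widths, classes and clusters are those of the lists and may not be those of the caller. Chromosomes 20, 21 and 22 hold no peak in any of the 8 lists, so the comparison covers 19 of the 22 autosomes. The lists also end early on chromosomes 1 to 12, where the final stretch of each chromosome holds no peak in any list. On chromosome 1, for example, the last peak of the A2780 and CAOV4 H3K27ac lists ends at 197.2 Mb, and the counts leave out what lies beyond. Positions are those of the lists, in GRCh37 (hg19) as named in the submitters' processing notes. No annotation of this build was used, so loci are given by position and not by gene, and the epithelial, mesenchymal and subtype markers of the 2 lines were not looked up.

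The 2 lists resembled each other in peak width but not in length. The A2780 peaks covered 96.7 Mb and the CAOV4 peaks 76.4 Mb, a ratio of 1.27. The median width was 2200 bp in both lists, with the middle 50% of the peaks between 1000 and 4200 bp in both. At the broad end, A2780 had 1504 peaks over 10 kb, or 5.38% of its peaks, and CAOV4 had 1113, or 4.88%. The widest peak was in CAOV4 and reached 231 kb, whereas the widest A2780 peak reached 132.6 kb.

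A minority of the merged regions carried a peak in both lines. Of the 39160 regions, 9591 were shared, or 24.5% (95% Wilson interval 24.1 to 24.9), 17392 were A2780-only, or 44.4% (43.9 to 44.9), and 12177 were CAOV4-only, or 31.1% (30.6 to 31.6). All intervals in the text are of this kind and cover counting error only, not the spread between cultures of a line. Counted in bases, 31.4 Mb lay in peaks of both lines, which was 22.2% of the 142 Mb covered in either, 32.5% of the bases of A2780 and 41.1% of those of CAOV4. The A2780-only regions took up 44.2 Mb, or 45.7% of the A2780 bases, and the CAOV4-only regions 30.2 Mb, or 39.6% of the CAOV4 bases. A2780-only regions made up 58.8% of all line-specific regions. Cutting both lists, to peaks over 2 kb or to the wider 50% of each, left this share at 57.4% and 58.7%. CAOV4 has the shorter list, so taking an equal number of widest peaks dropped only the narrowest A2780 peaks and gave 50.6%. Taking the widest peaks up to the same covered length also kept every CAOV4 peak and cut narrow A2780 peaks alone. It gave 22.7%, with 4499 A2780-only and 15331 CAOV4-only regions, so neither of these last values compares the lists evenly. The counts depend on which peaks are taken and are not a measure of which line has more H3K27ac.

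Shared regions were wider than line-specific ones. The median shared region spanned 5200 bp, against 1400 bp in both line-specific classes. Of the line-specific regions, 64.5% in A2780 and 61.8% in CAOV4 were up to 2 kb wide, but 7.69% of the shared regions were. A shared region is the union of the peaks of both lines and is wider in part by construction, so width was also taken per peak. Among A2780 peaks of up to 1 kb, 13.2% (12.4 to 13.9) overlapped a CAOV4 peak, and the share rose to 49.4% (48.4 to 50.5) at 2 to 5 kb and 69.6% (68.2 to 71.1) at 5 to 10 kb. Among CAOV4 peaks, it went from 20.2% (19.2 to 21.2) at up to 1 kb to 59.8% (58.7 to 60.8) at 2 to 5 kb and 65.0% (63.2 to 66.7) at 5 to 10 kb. In both lines, wider peaks had a partner more often up to 10 kb. A wider peak also meets a peak of the other list more easily at an overlap of 1 bp. The share expected from width alone was not computed.

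**Figure D1:**
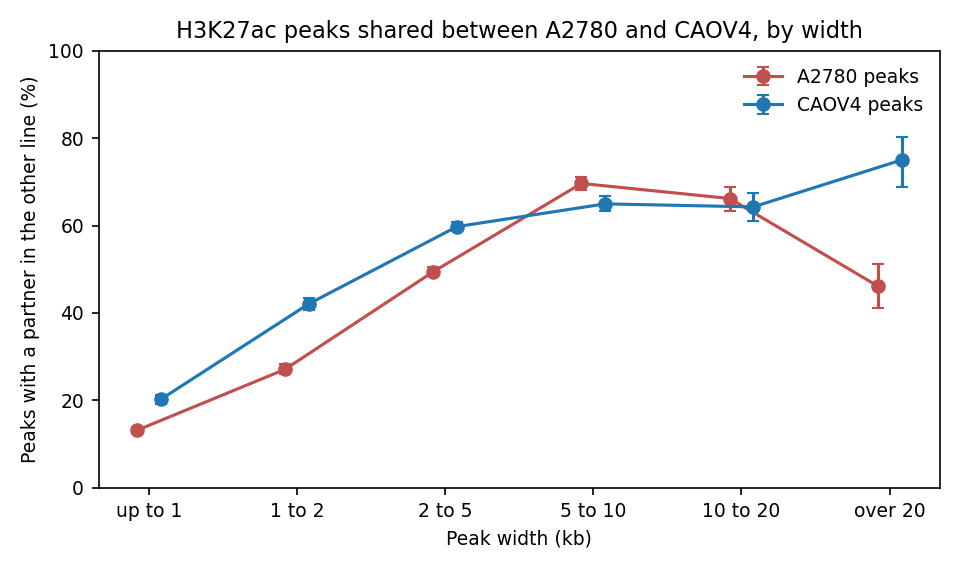
The plot of partners by width gives, for each width class of peaks in kb on the x axis, the share of peaks in percent on the y axis that overlap a peak of the other line, with bars for 95% Wilson intervals. CAOV4 has the higher share up to 5 kb, both lie between 64.3% and 69.6% from 5 to 20 kb, and above 20 kb they part, at 46.2% for A2780 and 75% for CAOV4.

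The lines parted at the widest peaks. Of the 377 A2780 peaks over 20 kb, 174 had a CAOV4 partner, or 46.2% (41.2 to 51.2), which was below the 66.2% (63.4 to 68.9) of those of 10 to 20 kb. Of the 220 CAOV4 peaks over 20 kb, 165 had an A2780 partner, or 75% (68.9 to 80.3), above the 64.3% (61.1 to 67.4) of those of 10 to 20 kb. Of the 2544 merged regions over 10 kb, 62.3% were shared (1586), 23.0% were A2780-only (584) and 14.7% were CAOV4-only (374). Over 20 kb there were 364 shared, 203 A2780-only and 55 CAOV4-only regions, and over 50 kb there were 38, 24 and 4. Of the line-specific regions over 10 kb, 61.0% (57.8 to 64.0) were A2780-only, close to the 58.8% over all widths, whereas over 20 kb it was 78.7% (73.3 to 83.2).

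Within a shared region, the peaks of the 2 lines were usually of like extent. In 8187 of the 9591 shared regions, or 85.4%, there was 1 peak of each line. The covered length was larger in A2780 in 5532 regions, larger in CAOV4 in 3714 and equal in 345, with a median ratio of A2780 to CAOV4 of 1.18, and in 5750 regions, or 60.0%, it differed by less than 2 times. A difference of at least 10 times was seen in 201 regions with more in A2780 and in 191 with more in CAOV4. At these regions the bases shared cannot exceed the smaller of the 2 covers. As a separate count, the peaks shared no more than 200 bp in 322 of the regions with 1 peak of each line. The step of the grid is also 200 bp. How many regions belong to both sets was not counted.

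The widest shared regions included loci that were broad in 1 line only. On chromosome 16, from 85467001 to 85698000, CAOV4 had a single peak of 231 kb and CAOV4cis covered 225 kb, whereas A2780 covered 59.2 kb in 17 peaks and the other libraries of the A2780 lineage 45.4 to 58.8 kb. The next region upstream, from 85374201 to 85444600, was covered over 70.4 kb in CAOV4 and over 0.60 kb in A2780. On chromosome 2, from 172846201 to 172978800, the order was the opposite, with 132.6 kb in A2780, at least 129.4 kb in the rest of its lineage, 6.60 kb in CAOV4 and 14.4 kb in CAOV4cis. The region on chromosome 12 from 54599201 to 54696000 was the most evenly covered of the 5 widest, with 96.8 kb in A2780 and 37.0 kb in CAOV4. On chromosome 5, from 91961801 to 92056000, A2780 covered 94.2 kb and CAOV4 1.60 kb. On chromosome 13, from 91727801 to 91823000, a CAOV4 peak of 0.40 kb fell inside an A2780 domain of 95.2 kb, and neither A2780cis nor CAOV4cis had a peak there. The regions on chromosomes 5 and 13 thus count as shared although nearly all of their cover is in A2780.

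Line-specific regions lay near a peak of the other line in a minority of cases. The nearest CAOV4 peak was at a median distance of 21.0 kb from an A2780-only region, and the nearest A2780 peak was 22.6 kb from a CAOV4-only region. A peak of the other line lay within 1 kb of 883 A2780-only regions, or 5.08%, and of 772 CAOV4-only regions, or 6.34%, and within 5 kb it lay at 21.4% and 22.5%. At the far end, 262 A2780-only and 293 CAOV4-only regions had no peak of the other line within 1 Mb. The broad line-specific regions stood farther from the other line's peaks in both lines. A broad region enters its class only where a long stretch lacks any peak of the other line. The larger distance is thus in part set by the class rule. For the 584 A2780-only regions over 10 kb the median distance was 157.7 kb, with 342 of them, or 58.6% (54.5 to 62.5), over 100 kb away from any CAOV4 peak. For the 374 CAOV4-only regions over 10 kb the median was 63.2 kb, with 155, or 41.4% (36.6 to 46.5), over 100 kb away.

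The libraries that did not enter the classing show how far a class recurred. Of the shared regions, 87.7% had a peak in A2780cis, 89.4% and 87.8% in the A2780 cells with shMBD3.26 and shMBD3.232, and 82.0% in CAOV4cis. Of the A2780-only regions, 39.7% (38.9 to 40.4) had a peak in A2780cis, 44.0% and 40.6% with the 2 shRNAs, and 13.1% (12.6 to 13.6) in CAOV4cis. Of the CAOV4-only regions, 43.8% (42.9 to 44.6) had a peak in CAOV4cis, 8.25% (7.78 to 8.76) in A2780cis, and 4.90% and 4.14% with the shRNAs. Line-specific regions were thus found more often in libraries of their own lineage than of the other, but fewer than 50% of them had a peak in any single further library of their own lineage. These further libraries are derived from the same 2 lines and do not replicate a subtype.

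How often a line-specific region recurred differed with its width, and a wider region has more room for a peak of any list. Among A2780-only regions of up to 2 kb, 30.5% had a peak in A2780cis and 28.3% with shMBD3.26, and over 10 kb it was 54.1% (50.1 to 58.1) and 99.3% (98.3 to 99.7). Among CAOV4-only regions of up to 2 kb, 25.7% had a peak in CAOV4cis, and over 10 kb it was 96.5% (94.1 to 98.0). In the opposite lineage the share did not follow width in this way. At A2780-only regions CAOV4cis had a peak at 9.28% up to 2 kb, 20.1% from 2 to 5 kb, 23.6% from 5 to 10 kb and 12.3% (9.91 to 15.2) over 10 kb. At CAOV4-only regions A2780cis had a peak at 7.36% up to 2 kb, 9.36% (6.81 to 12.7) over 10 kb and 16.4% (8.86 to 28.3) over 20 kb, the last of these over 55 regions. In bases, CAOV4cis covered 1.27% of all broad A2780-only regions and A2780cis 1.62% of all broad CAOV4-only regions, those without a peak included. CAOV4cis covered 76.7% of the bases of the broad CAOV4-only regions, and shMBD3.26 and shMBD3.232 covered 84.1% and 82.4% of those of the broad A2780-only regions.

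**Figure D2:**
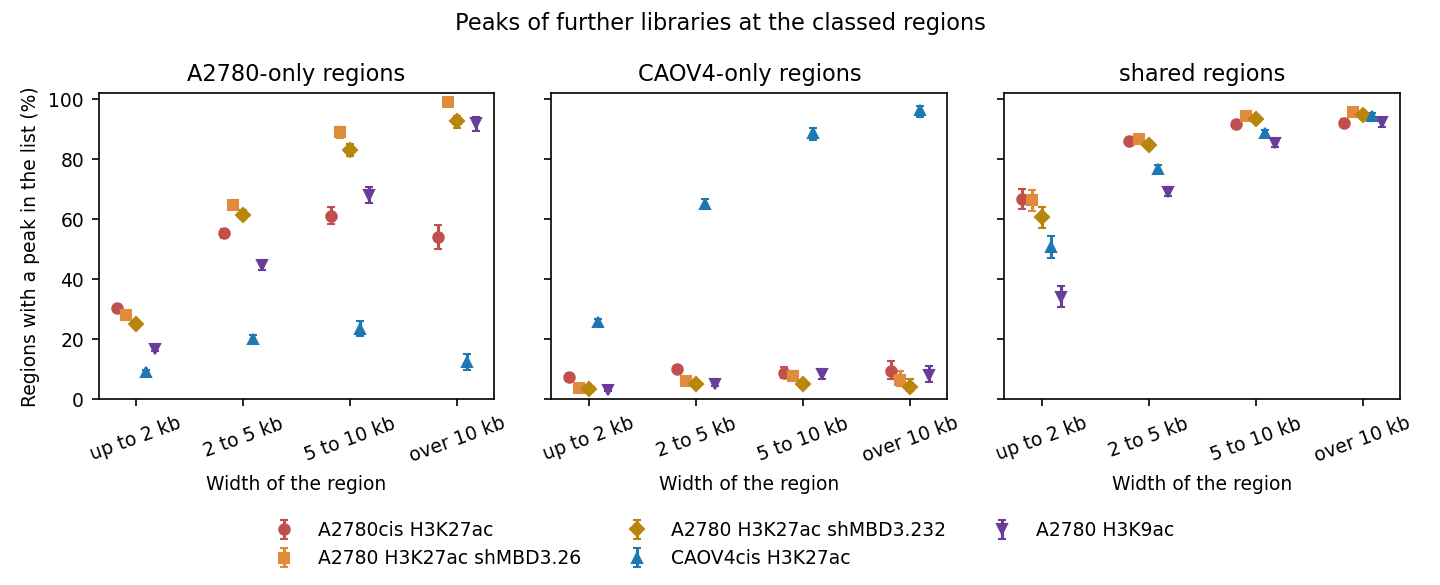
The plot of further libraries gives, for each class in its own panel and for each width of region on the x axis, the share of regions in percent on the y axis with a peak in a library that the classing did not use, with bars for 95% Wilson intervals. In the A2780-only panel the points of the shRNA libraries and of H3K9ac in A2780 lie above 90% over 10 kb while A2780cis is at 54.1% and CAOV4cis at 12.3%, and in the CAOV4-only panel CAOV4cis climbs to 96.5% while the lists from A2780 and A2780cis that are drawn lie at 10.02% or below.

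Regions found in their line alone were narrow. There were 6292 A2780-only regions with no peak in any further H3K27ac library, or 36.2% of the class, with a median width of 600 bp, and 6162 CAOV4-only regions, or 50.6%, with a median of 800 bp. The A2780 lineage offers 3 further libraries and the CAOV4 lineage 1, so these shares are not to be compared with each other. Over 10 kb, 2 A2780-only regions and 13 CAOV4-only regions were of this kind. Conversely, 405 A2780-only and 687 CAOV4-only regions had a peak in the opposite lineage and in no further library of their own, and none of these exceeded 10 kb. Where a peak was required in every further library of the own lineage and none was allowed within 5 kb in any library of the other, 2057 A2780-only regions and 3392 CAOV4-only regions remained, with 235 and 266 of them over 10 kb.

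The broad A2780-only regions split into those listed in A2780cis and those missing there. Of the 584, 316 had an A2780cis peak and 268 had none. Among the 268 regions, 239, or 89.2% (84.9 to 92.4), had a peak in both shRNA libraries and 240, or 89.6% (85.3 to 92.7), had an H3K9ac peak in A2780, but 6, or 2.24% (1.03 to 4.80), had an H3K9ac peak in A2780cis. Among the 316 regions, 302 had a peak in both shRNA libraries, 298 had H3K9ac in A2780 and 269, or 85.1% (80.8 to 88.6), had H3K9ac in A2780cis. The split itself set the presence of H3K27ac in A2780cis, so for A2780cis only the H3K9ac shares are an observation. The chromosomes differed in how many of their broad A2780-only regions had an A2780cis peak, with 10 of 40 on chromosome 2, 6 of 24 on chromosome 11, 7 of 23 on chromosome 13 and 8 of 25 on chromosome 18, against 24 of 26 on chromosome 19, 14 of 16 on chromosome 16 and 11 of 13 on chromosome 17. Of the 374 broad CAOV4-only regions, 13 had no CAOV4cis peak.

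H3K9ac gave a second mark at the same sites, in A2780 and A2780cis. An H3K9ac peak in A2780 lay at 76.0% (75.2 to 76.9) of the shared regions, at 29.8% (29.2 to 30.5) of the A2780-only regions and at 4.37% (4.02 to 4.75) of the CAOV4-only regions. In A2780cis the shares were 73.2%, 21.6% and 3.07%. Over 10 kb, 92.4% of the shared, 92.1% of the A2780-only and 8.02% of the CAOV4-only regions had H3K9ac in A2780. The shared and A2780-only classes were alike here in the share with a peak, but not in bases. H3K9ac in A2780 covered 43.7% of the bases of the broad shared regions, some of which were broad in CAOV4 only, and 58.3% of those of the broad A2780-only regions. From 5 to 10 kb, 85.4% of the shared and 68.2% of the A2780-only regions had a peak. At regions of up to 2 kb the shares were 34.3%, 16.7% and 3.2%. The broad CAOV4-only regions lack H3K27ac in A2780 by definition, and most of them also had no H3K9ac peak in A2780. H3K9ac in the CAOV4 lineage was not analysed here.

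The classes were spread unevenly over the autosomes. The share of A2780-only regions was highest on chromosomes 4 (59.9%, 57.4 to 62.5), 2 (59.3%, 57.2 to 61.4) and 18 (56.3%, 52.8 to 59.8), followed by 19 (55.9%, 54.0 to 57.7), and lowest on chromosomes 14 (32.3%, 30.2 to 34.5), 11 (32.4%, 30.6 to 34.2) and 17 (35%, 33.3 to 36.7), beside 44.4% over all of them. CAOV4-only regions were most frequent on chromosome 8, at 43.5% (41.2 to 45.9), and least on chromosome 19, at 13.3% (12.1 to 14.6), beside 31.1%. Shared regions were most frequent on chromosome 17, at 31.2% (29.6 to 32.8), and least on chromosome 18, at 16.4% (14.0 to 19.3), beside 24.5%. These 3 high and 3 low chromosomes stayed apart when the overlap, the distance, the minimum width or the number of peaks taken was changed, with chromosomes 4, 2 and 18 at 45.6% to 59.9% and chromosomes 14, 11 and 17 at 20.4% to 35.6%.

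**Figure D3:**
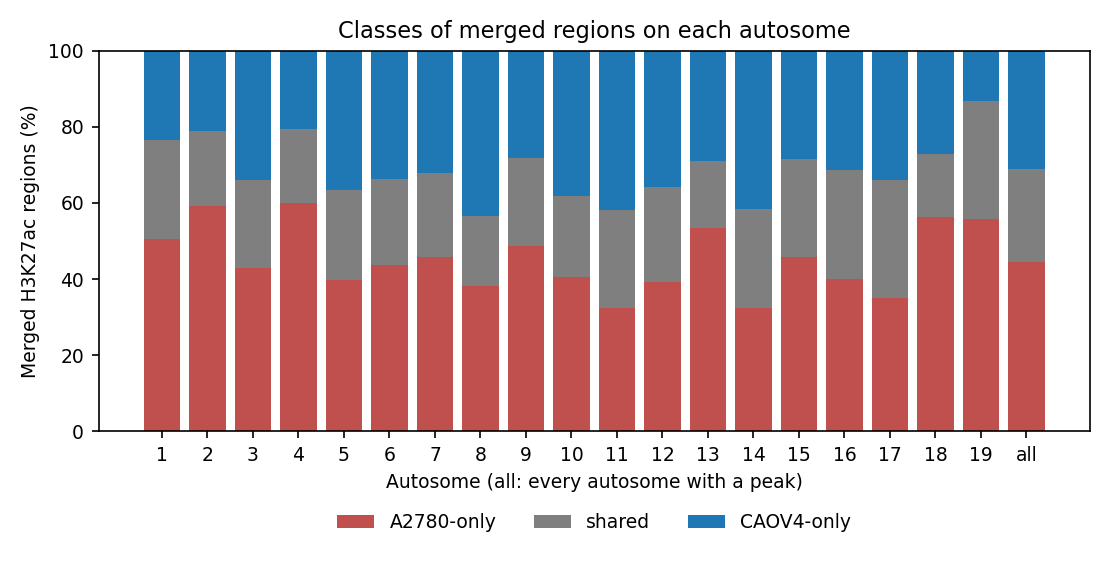
The stacked bars by chromosome show the share of merged regions in percent on the y axis that were A2780-only, shared or CAOV4-only on each autosome with a peak, and over all of them in the last bar. Chromosome 19 has the smallest CAOV4-only part, at 13.3%, and chromosome 8 the largest, at 43.5%.

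Covered length followed the same chromosomes. Beside the ratio of A2780 to CAOV4 of 1.27 over all autosomes, it was 2.46 on chromosome 2, 2.39 on chromosome 18, 2.37 on chromosome 4, 2.19 on chromosome 19 and 2.15 on chromosome 13, and it was under 1 on chromosomes 14 (0.80), 11 (0.81), 17 (0.87), 8 (0.89) and 16 (0.996). The share of a list's covered bases on a chromosome takes the length of the list out of the comparison. Chromosome 19 held 8.53% to 9.46% of the covered bases in the 4 lists of the A2780 lineage, against 5.41% in CAOV4 and 4.15% in CAOV4cis. Chromosome 17 held 7.30% to 8.43% in the A2780 lineage and 11.6% in both CAOV4 and CAOV4cis. On chromosome 2 the A2780 lineage had 5.44% to 6.02%, CAOV4 2.80% and CAOV4cis 2.23%. The values of the 2 lineages did not overlap on these 3 chromosomes, but this was not particular to them. It held on all of the 19 autosomes with a peak except chromosomes 3, 6, 13 and 15. On chromosome 13, A2780cis, at 1.35%, lay below A2780, at 2.37%, and beside CAOV4, at 1.40%, and CAOV4cis, at 1.30%. The number of copies of each chromosome in the 2 lines was not measured in these lists, and its part in the differences was not tested.

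The broadest line-specific regions of A2780 were single peaks of over 80 kb. The widest lay on chromosome 1 from 172048601 to 172160200, 111.6 kb in A2780, 109.2 and 110.0 kb with the 2 shRNAs and 65.2 kb in A2780cis, with the nearest CAOV4 peak 11.8 kb away. The next, on chromosome 2 from 50299401 to 50397200, was covered over its full 97.8 kb in A2780 and in both shRNA libraries and had no peak in A2780cis, and the nearest CAOV4 peak lay 909 kb away. On chromosome 16, from 73672801 to 73756600, all 4 libraries of the lineage covered 79.6 to 83.8 kb. On chromosome 9, from 14460001 to 14543000, A2780 covered 83.0 kb, the shRNA libraries 67.0 and 49.2 kb, and A2780cis 0.20 kb. On chromosome 1, from 192507601 to 192589200, A2780 covered 81.6 kb and A2780cis nothing. H3K9ac in A2780 covered 58.6 to 107.6 kb of each of these 5 regions, and H3K9ac in A2780cis covered 72.2 kb of the first and 79.4 kb of the third and was not listed in the other 3. A2780cis thus had broad H3K27ac cover at just the 2 regions where it also had H3K9ac. CAOV4cis had no peak in any of the 5.

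The broadest CAOV4-only regions were shorter and recurred in CAOV4cis without exception among the 5 named. The widest lay on chromosome 14 from 94813601 to 94890000, with 76.4 kb in CAOV4 and 75 kb in CAOV4cis. It was followed by chromosome 17 from 39639801 to 39699600, with 59.8 and 54.8 kb, and chromosome 8 from 116862801 to 116917200, with 54.4 and 53.0 kb. The last of the 5 were chromosome 6 from 12306001 to 12359800, with 53.8 and 48.0 kb, and chromosome 8 from 102494001 to 102542000, with 48.0 and 42.8 kb. A2780 has no H3K27ac peak in these 5 regions by definition. A2780cis, both shRNA libraries and both H3K9ac lists also had no peak in any of them. The nearest A2780 peaks lay between 104 and 401 kb away.

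**Figure D4:**
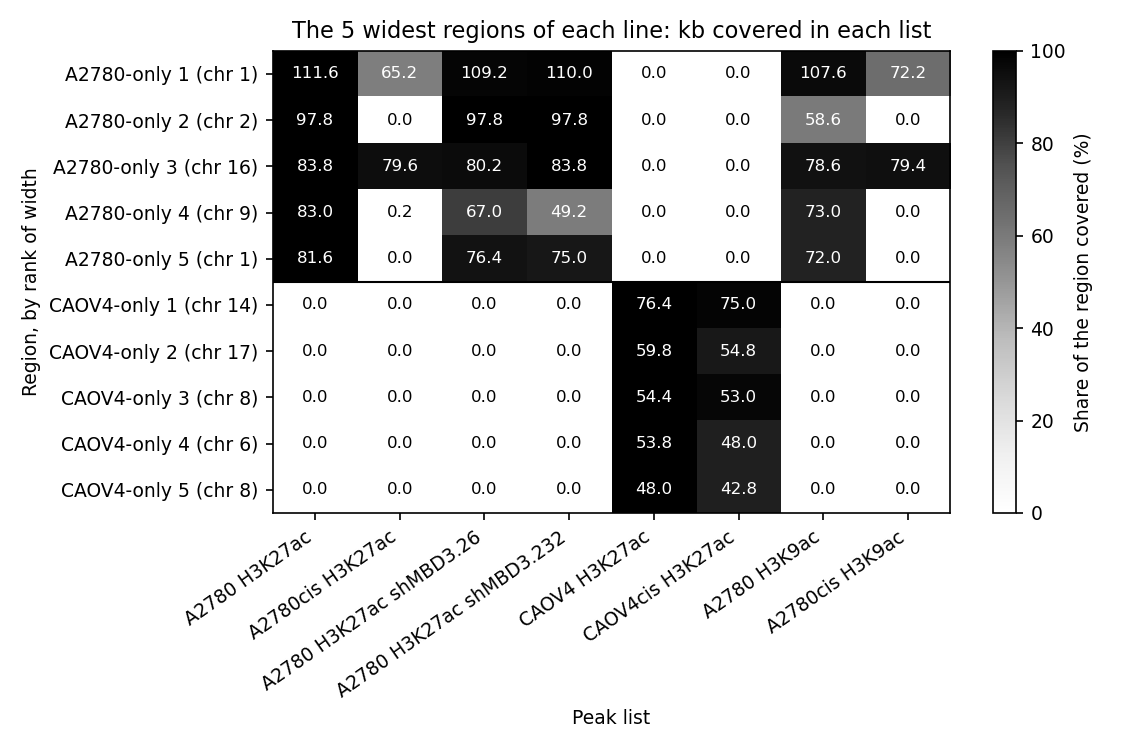
The grid of the 5 widest regions of each line gives the region on the y axis, by rank and chromosome, and the 8 peak lists on the x axis, with the kb covered printed in each cell and the share of the region covered in percent as shading. The CAOV4-only rows are filled in CAOV4 and CAOV4cis and are 0.0 in the 4 H3K27ac and 2 H3K9ac lists from A2780 and A2780cis, and 3 of the 5 A2780-only rows are empty or at 0.2 kb in A2780cis.

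Line-specific regions also lay close together. Regions separated by gaps of up to 12.4 kb were joined into 17202 clusters, of which 5758 held A2780-only regions alone, 4401 CAOV4-only regions alone, 2408 shared regions alone and 4635 more than 1 class. The A2780-only cluster with the most cover lay on chromosome 5 from 58290601 to 58691600, where 35 peaks covered 264 kb in A2780 and 12 peaks covered 362 kb in A2780cis. The next were on chromosome 8 from 82879601 to 83133800, with 197.4 kb in A2780 and 216 kb in A2780cis, and on chromosome 6 from 104955201 to 105245600, with 195.0 kb and 113.4 kb. The CAOV4-only clusters with the most cover lay on chromosome 10 from 8984601 to 9272400, with 173.4 kb in CAOV4 and 180.0 kb in CAOV4cis, on chromosome 5 from 35129401 to 35322800, with 150 and 138.8 kb, and on chromosome 8 from 116502201 to 116724200, with 138.0 and 155.6 kb. All 3 clusters of A2780 lack CAOV4 peaks by definition and were also empty in CAOV4cis. In the reverse direction, A2780 peaks are absent from the 3 clusters of CAOV4 by definition. Among A2780cis and the shRNA libraries, the only H3K27ac cover there was 1 A2780cis peak of 1.40 kb in the cluster on chromosome 8.

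In runs, consecutive regions of 1 class followed each other with no region of another class between them, and the 3 runs of each line with the most cover spanned 808 to 1177 kb. The A2780-only run with the most cover lay on chromosome 12 from 65683001 to 66516800, with 47 regions and 522 kb in A2780, 514 kb in A2780cis, 440 and 450 kb with the shRNAs and 0.20 kb in CAOV4cis. It was followed by chromosome 4 from 124490401 to 125628800, with 55 regions and 456 kb in A2780, and by chromosome 16 from 73145801 to 74322400, with 43 regions and 427 kb, which contains the third widest A2780-only region. The CAOV4-only run with the most cover lay on chromosome 8 from 116465801 to 117473400, with 65 regions, 389 kb in CAOV4, 439 kb in CAOV4cis and 3.60 kb in A2780cis. It contains the third widest CAOV4-only region and the third cluster. The others were on chromosome 6 from 12123801 to 13271000, with 43 regions and 273 kb, and on chromosome 17 from 38990801 to 39799200, with 36 regions and 261 kb, and they contain the fourth and the second widest CAOV4-only region. At all 6 runs, the sensitive line of the opposite lineage has no peak by definition. The other libraries of that lineage covered at most 4.0 kb each in H3K27ac.

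Set among all pairs of H3K27ac lists, the overlap of A2780 and CAOV4 was like that of any pair across the lineages. The bases covered by both lists, as a share of those covered by either, were 22.2% for A2780 and CAOV4 and 21.5% to 23.1% over the 8 pairs across the lineages. Within the A2780 lineage the pairs ranged from 42.6% to 60.5%, with 44.5% for A2780 and A2780cis, and CAOV4 and CAOV4cis shared 45%. Each resistant line was thus about as far from the opposite lineage as its sensitive parent. These pairs share lists and differ in length, and the values are a description.

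**Figure D5:**
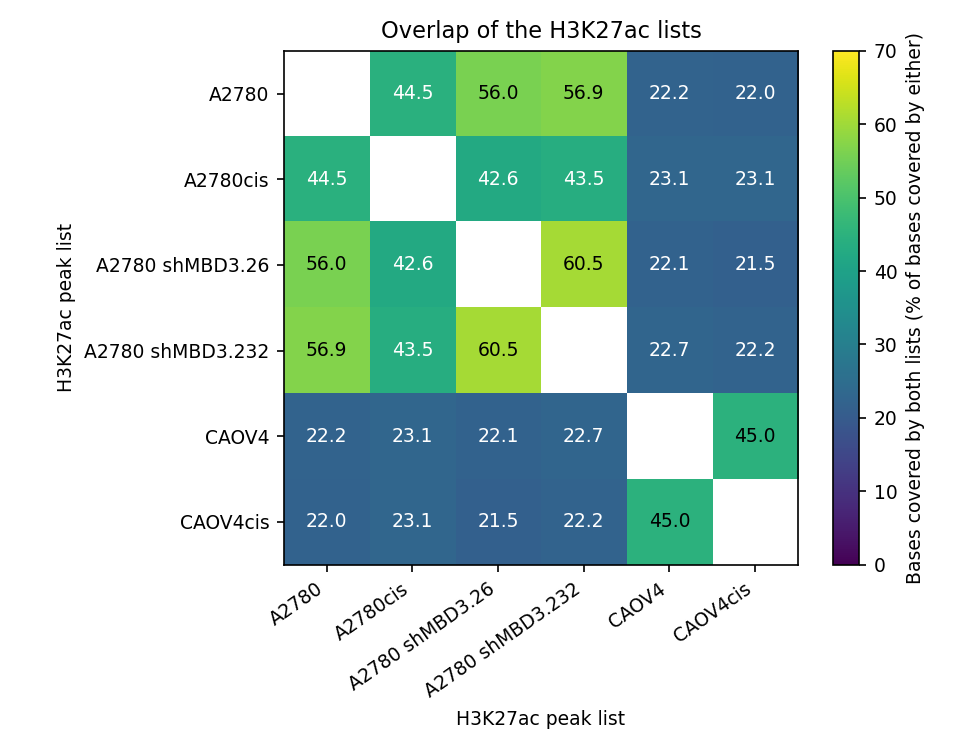
The grid of pairs gives the 6 H3K27ac peak lists on both axes, with the bases covered by both lists as a percent of those covered by either printed in each cell and shown as color. Cells across the lineages hold 21.5% to 23.1%, and cells within a lineage hold 42.6% to 60.5%.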

How the data were processed

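ChIP-seq for H3K27ac and H3K9ac gave 1 library per condition. As the methods of the study state, Bowtie2 was used for alignment, an R script for quantile normalization and MACS2 for peak calling; the step that put the deposited boundaries on a grid is not given in the sources used here. The build is GRCh37 (hg19) per the submitters' processing notes, and tool versions are not given in the sources used here. The deposited lists, 1 per sample and not pooled, hold peak starts and ends, which were used as base positions, and a score of 0 throughout, which was not used.

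Autosomal peaks of A2780 and CAOV4 overlapping by 1 bp were merged, classed and looked up in the other lists. Chromosome X and peaks off the standard chromosomes were left out. The named loci are the 5 widest regions of each class and the 3 clusters and 3 runs of each line with the most cover. Loci with the most unequal cover, regions over 10 and 20 kb, all pairs of lists and the strict set were added after seeing the data. The members and lists were chosen with earlier results of these data known. Alternatives were another overlap, distance, width, list length and stitching distance. Input libraries and control shRNA cells were not analysed here. Python 3.11.15 was used (SciPy 1.17.1, pandas 2.3.3, numpy 2.4.6, matplotlib 3.10.9), and the classing was tested on copies of the A2780 list with different peaks removed from each. The kept peaks were identical, so the classing of partial overlaps was not tested.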

Additional observations from a re-analysis of the deposited data

Results flagged for a closer look

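Chromosome X lay outside the comparison, which was restricted to the autosomes, and its peaks were looked at apart because they are data that the comparison did not use. It held 1077 merged regions, of which 262 were shared, or 24.3% (95% Wilson interval 21.9 to 27), 435 were A2780-only, or 40.4% (37.5 to 43.3), and 380 were CAOV4-only, or 35.3% (32.5 to 38.2). There is no control sample for these counts, and the difference from the autosomes was not tested.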

How the results depend on the processing

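A share was called close if it stayed inside the interval of the value given, and a count or covered length if it stayed within a set factor. The factor is the looser rule, so 6456 shared regions at the same covered length were called close to the 9591 given. Of 112 alternative values over 23 results, 38 stayed close to the value given, 73 moved and 1 turned its direction. This was the share of A2780-only among line-specific regions, 58.8%, which was 57.4% with peaks over 2 kb, 50.6% with the same number of widest peaks and 22.7% with the widest peaks up to the same covered length. The same number and the same covered length were those of the full CAOV4 list, so these settings cut narrow A2780 peaks alone. Shared regions numbered 16057 at a distance of up to 5 kb and 5849 with peaks over 2 kb. A2780-only regions numbered 7849 with peaks over 2 kb, 6098 with the wider 50% of each list and 4499 at the same covered length, and CAOV4-only regions numbered 5825 and 4293 with the first 2 of these. The share of A2780 peaks with a partner was 36.5% with an overlap of 50% of the shorter peak, 51.1% at up to 5 kb, 44.3% over 2 kb, 56.3% in the wider 50%, 43.8% with the same number of peaks and 59.9% at the same covered length. For CAOV4 peaks these shares were 45.1%, 58.6%, 52.0%, 62.4%, 45% and 32.8%, so that A2780 had the lower share except at the same covered length, where its list alone was cut. The share of A2780-only regions with an A2780cis peak was 38.5% at up to 5 kb, 56.4% over 2 kb and 30.5% up to 2 kb. With a CAOV4cis peak it was 13.9% with an overlap of 50%, 10.3% at up to 5 kb, 20.04% over 2 kb and 9.28% up to 2 kb. CAOV4-only regions had a CAOV4cis peak in 72.9% over 2 kb and 25.7% up to 2 kb, and an A2780cis peak in 9.65% with an overlap of 50%, 5.61% at up to 5 kb, 9.70% over 2 kb and 7.36% up to 2 kb. H3K9ac of A2780 lay at 30.6% of A2780-only regions at up to 5 kb, 53.7% over 2 kb and 16.7% up to 2 kb, and at 5.20% of CAOV4-only regions with an overlap of 50%, 2.53% at up to 5 kb, 6.22% over 2 kb and 3.2% up to 2 kb. At shared regions it was 53.5% at up to 5 kb, 79.5% over 2 kb and 34.3% up to 2 kb. Stitching at 5 and 25 kb gave 9276 and 3439 A2780-only clusters and 6748 and 2778 CAOV4-only clusters. The causes of these shifts were not tested. No paired analysis was possible because each condition has 1 library and no replicate numbers are shared, and for the same reason no replicate could be left out. With no signal or read depth in the lists, an absent peak cannot be told from one under the caller's threshold.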

Other observations

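The cover of the 2 lines was also summed in windows of 1 Mb, which are far wider than most peaks, so that the number with a peak in both follows in part from the window size. Of 2029 windows with a peak in either line, 1671 had a peak in both, 150 in A2780 alone and 208 in CAOV4 alone. Among those with a peak in both, the covered length was at least 5 times larger in A2780 in 216 windows and at least 5 times larger in CAOV4 in 119. The covered length per window of A2780 and CAOV4 had a Spearman rho of 0.56 over the 2029 windows, against 0.77 over 1944 windows for A2780 and A2780cis and 0.94 over 2011 windows for CAOV4 and CAOV4cis. These are values across windows of 2 libraries, which are not independent replicates and share the density of genes along the chromosomes.

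A2780cis had a slightly larger base overlap with the CAOV4 lineage than A2780 had, at 23.1% with both CAOV4 and CAOV4cis, against 22.2% and 21.97% for A2780. Its list is shorter, with 20245 autosomal peaks of a median width of 2800 bp.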
